A study of Homo sapiens with 18 samples.

Results

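The golgins are long coiled-coil proteins of the Golgi that reach out from its membranes and capture passing vesicles. The 10 described here are GOLGA1, GOLGA2, GOLGA3, GOLGA4, GOLGA5, GOLGB1, GOLIM4, GCC1, GCC2 and TRIP11, chosen by gene symbol from the 28266 rows of a raw count table. All 10 were among the 14341 genes with enough counts to be tested. The RNA came from IMR90 ER:RAS cells, human lung fibroblasts into which a retrovirus had brought oncogenic RAS fused to a hormone-binding domain of the oestrogen receptor. The drug 4-hydroxytamoxifen (4OHT) activates this fusion and brings on senescence, a lasting arrest with strong protein secretion. Cells of the 3 senescent groups had 100 nM 4OHT for 7 days and cells of the 3 control groups had DMSO, and both carry the fusion. Each state then had DMSO, IMP1088 at 300 nM or DDD86481 at 1.5 µM for 3 days, and RNA was collected on day 10. IMP1088 and DDD86481 inhibit the N-myristoyltransferases NMT1 and NMT2, and their doses differ. Each of the 6 groups had 3 libraries, with 16143716 to 23189950 counts per library. The labels do not say whether replicates were separate cultures, while a supplementary legend of the study calls its replicates of these treatments independent experiments. P-values measure the spread between these libraries.

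Golgins differ in where they sit and in how they reach the membrane. GOLGA1, GOLGA4, GCC1 and GCC2 end in a GRIP domain, and the first pair is held on the trans-Golgi network by the small GTPase ARL1, itself a myristoylated protein. GOLGA2 and TRIP11 act at the cis side, where GOLGA2 binds the myristoylated stacking protein GORASP1, while GOLGA5 and GOLGB1 are anchored in the membrane, GOLIM4 is a membrane protein that cycles between the Golgi and endosomes, and GOLGA3 is a peripheral golgin.

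The promoter letters are shown for 4 golgins that rose with both inhibitors in control cells and hold a match to a motif listed below, in a stretch free of annotated exons. Each sequence is the 250 bases before the RefSeq start on GRCh38.p14, read along the gene's strand, with motif matches in capitals. GOLGA1 is at chr9:124941084-124941333 and GOLIM4 at chr3:168095925-168096174, both on the minus strand. GCC1 is at chr7:127585597-127585846 on the minus strand and GOLGA5 at chr14:92794055-92794304 on the plus strand. The start used for GOLGA1 lies inside the span that RefSeq gives the gene.
GOLGA1: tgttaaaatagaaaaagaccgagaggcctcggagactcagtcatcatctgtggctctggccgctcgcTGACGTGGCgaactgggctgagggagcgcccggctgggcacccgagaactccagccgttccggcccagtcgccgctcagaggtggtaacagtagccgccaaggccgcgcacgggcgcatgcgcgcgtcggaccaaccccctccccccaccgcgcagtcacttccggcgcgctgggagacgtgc
GOLGA5: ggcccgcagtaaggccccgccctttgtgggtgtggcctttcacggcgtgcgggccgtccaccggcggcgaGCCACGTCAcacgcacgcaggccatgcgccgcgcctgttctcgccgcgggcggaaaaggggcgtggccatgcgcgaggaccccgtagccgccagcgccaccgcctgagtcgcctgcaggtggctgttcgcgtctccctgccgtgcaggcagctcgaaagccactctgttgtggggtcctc
GCC1: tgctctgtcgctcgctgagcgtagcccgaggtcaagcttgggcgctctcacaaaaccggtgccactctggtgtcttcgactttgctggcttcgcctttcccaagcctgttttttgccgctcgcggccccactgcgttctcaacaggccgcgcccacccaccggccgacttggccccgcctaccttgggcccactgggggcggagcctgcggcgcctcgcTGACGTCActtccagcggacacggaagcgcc
GOLIM4: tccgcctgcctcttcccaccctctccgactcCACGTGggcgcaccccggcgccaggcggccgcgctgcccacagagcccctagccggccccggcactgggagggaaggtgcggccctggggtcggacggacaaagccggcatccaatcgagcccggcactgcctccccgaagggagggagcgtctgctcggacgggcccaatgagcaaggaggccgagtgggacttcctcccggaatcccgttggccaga

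Motifs were searched on both strands of 300-base windows, 250 before and 50 after the start. The Golgi stress element ACGTGGC was in 3.22% of all 35116 windows, and among golgins in GOLGA1, in GOLGA5 and in 1 of the 3 windows of GOLGA3. In GOLGA1 it lay 181 to 175 bases before the start, and in GOLGA5 at 180 to 174 bases on the opposite strand. In both it overlapped the unfolded protein response element TGACGTGG, which was in 0.729% of windows. The cAMP response element TGACGTCA, in 1.85% of windows, lay 31 to 24 bases before the start of GCC1. The E-box CACGTG, in 7.26% of windows, lay 219 to 214 bases before that of GOLIM4. The ER stress element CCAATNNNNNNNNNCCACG (0.0769% of windows) and the amino acid response core TGATGCAA (0.866%) were in 0 of the 11 golgin windows. GOLGA4 had no entry. A match describes the letters and was not tested for binding.

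On GRCh38 RefSeq places GOLGA2 at chr9:128255829-128276007, GOLGA3 at chr12:132768914-132829081, GOLGB1 at chr3:121663201-121749966 and GOLIM4 at chr3:168008689-168095924, all on the minus strand. GCC1 (chr7:127580628-127585596) and TRIP11 (chr14:91965991-92040059) are also on the minus strand. GOLGA4 (chr3:37243271-37366879), GOLGA5 (chr14:92794305-92839947) and GCC2 (chr2:108449206-108509415) are on the plus strand. The counts are summed over a gene, so no exon or UTR can be told apart.

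Levels are given as CPM, the counts scaled to a common library size with TMM factors. Per kilobase of transcript, which allows genes to be compared, GOLGA2 led in control DMSO cells at 36.4 ± 1.82 CPM per kb (SD, n = 3). GOLGA5 at 32.4 ± 1.62 and GOLIM4 at 26.8 ± 4.55 CPM per kb came next. GOLGA4 (17.9 ± 0.827), GOLGA3 (15.3 ± 2.75) and GOLGB1 (10.9 ± 3.58 CPM per kb) were in the middle. GCC2 (8.07 ± 0.528), GCC1 (6.99 ± 1.10), GOLGA1 (5.76 ± 1.26) and TRIP11 (5.19 ± 1.28 CPM per kb) were lowest. In this order the gaps between GOLGA2 and GOLGA5 and between GOLIM4 and GOLGA4 were wider than the summed SDs of the pair, and the gaps between all other neighbours were not. In senescent DMSO cells GOLGA2 (42.4 ± 1.06), GOLIM4 (40.6 ± 2.53) and GOLGA5 (36.3 ± 0.835 CPM per kb) again led, with GOLIM4 now ahead of GOLGA5. The summed level of the 10 golgins was 828.3 to 1023 CPM in control DMSO libraries. It was 1330 to 1439 CPM with IMP1088 and 1286 to 1538 with DDD86481. In senescent cells the sum was 1059 to 1130 CPM with DMSO, 1362 to 1466 with IMP1088 and 1351 to 1596 with DDD86481, so in both states inhibitor and DMSO libraries did not overlap.

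**Figure D1:**
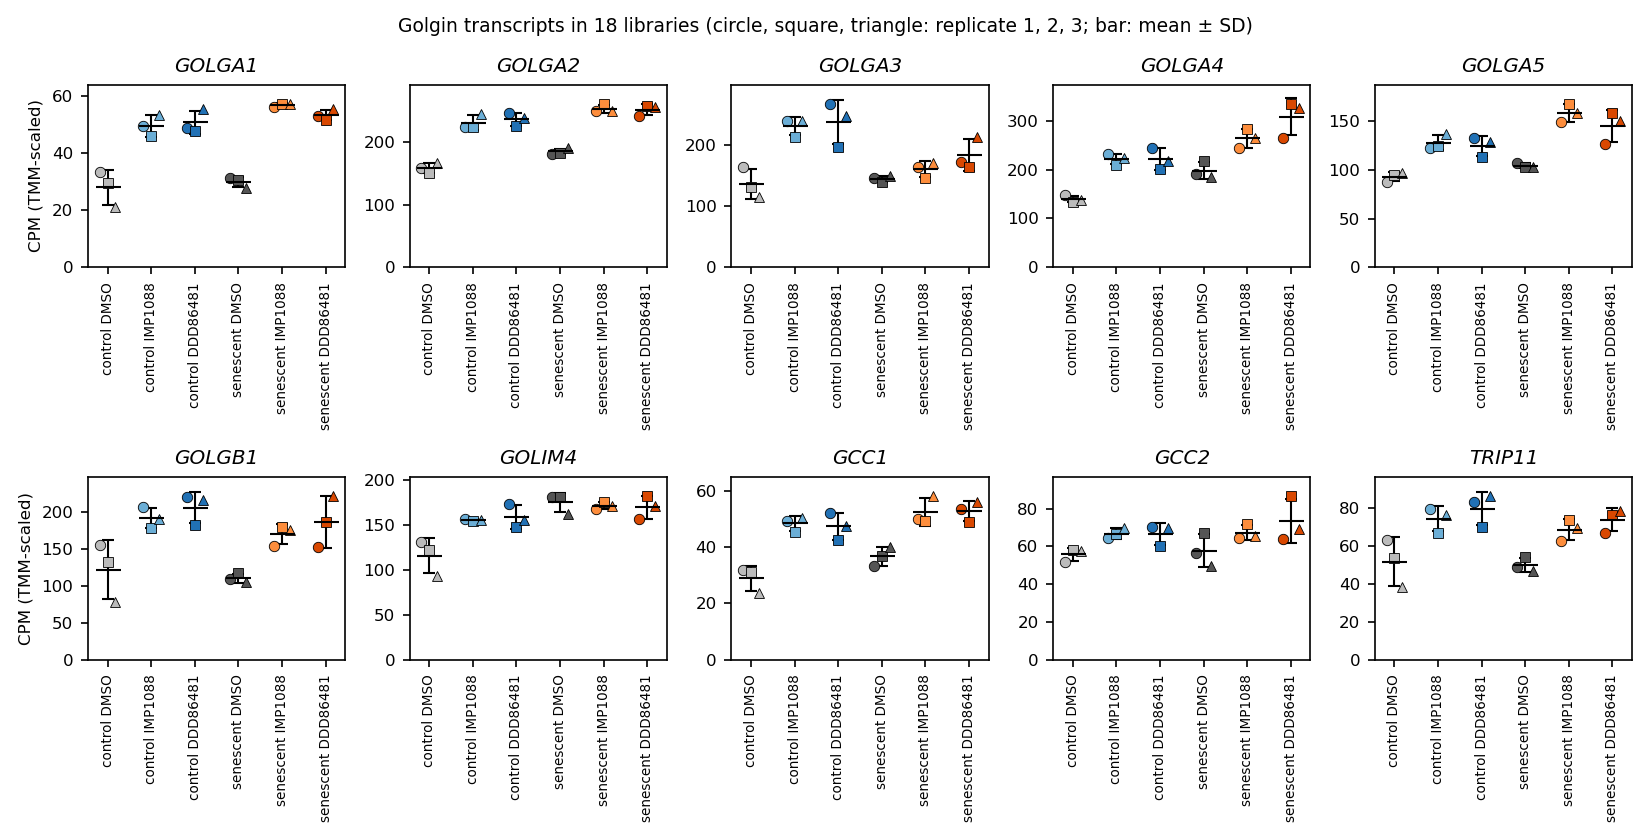
Level of each golgin in 18 libraries in CPM (y axis, from 0) by group (x axis), where circles, squares and triangles are replicates 1, 2 and 3 and bars are the mean ± SD of 3 libraries. All inhibitor libraries of control cells lie above all control DMSO libraries for the 10 golgins, while the GOLIM4 libraries of the 3 senescent groups overlap.

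In control DMSO replicate 3, genes with long transcripts were low and those with short transcripts high against the other control DMSO libraries. With genes split by transcript length into 5 bins of like size, the median log2 difference from the other libraries of the group went from 0.46 in the shortest bin to -0.45 in the longest. The opposite tilt was seen in control DMSO replicate 1, from -0.345 to 0.355. Golgin transcripts are long (2.879 to 11.19 kb), with 5 of the 10 in the longest bin, and their median difference in control DMSO replicate 3 was -0.38. Results against control DMSO are therefore also given without this library and with a correction that removes the length trend of each library, both chosen after seeing the data. The other 16 libraries stayed between -0.13 and 0.17 in the longest and shortest bins. Differences from the group also followed the GC content of transcripts in senescent libraries, with Spearman correlations across genes of 0.651 in senescent DMSO replicate 3, -0.544 in senescent DMSO replicate 2 and -0.479 in senescent DDD86481 replicate 2. The part of these GC trends in the golgin results was not tested beyond leaving out each of these named libraries in turn. After that 7 to 8 golgins still rose with each inhibitor in senescent cells. In control DDD86481 replicate 2 all 10 golgins were below the other 2 libraries of that group. The fibroblast markers VIM, COL1A1 and COL1A2 were at 647 CPM or more in each library, while DCN and LUM were as low as 7.26 and 7.25 CPM. The epithelial KRT5 and KRT14 and the leukocyte CD3E had 0 counts, where 3 counts would be 0.129 to 0.186 CPM in a library, and either list summed to at most 1.49 CPM. Of the 8 fibroblast markers 7 fell in senescence, among them DCN (-8.62 on the log2 scale) and LUM (-5.23), while VIM rose (1.21). The sum of the 8 was 24200 to 30300 CPM in control DMSO, 16400 to 16700 in senescent DMSO and 11300 to 12100 in senescent inhibitor libraries. Endothelial markers, mainly TEK, summed to 31.8 to 55.3, 19.6 to 24.1 and 8.28 to 13.5 CPM. TEK was the 1 of 4 that fell in senescence (-1.91), while the other 3, at no more than 6.43 CPM in any library, rose, among them CDH5 and VWF. The part of these shifts in the golgin results was not tested.

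**Figure D2:**
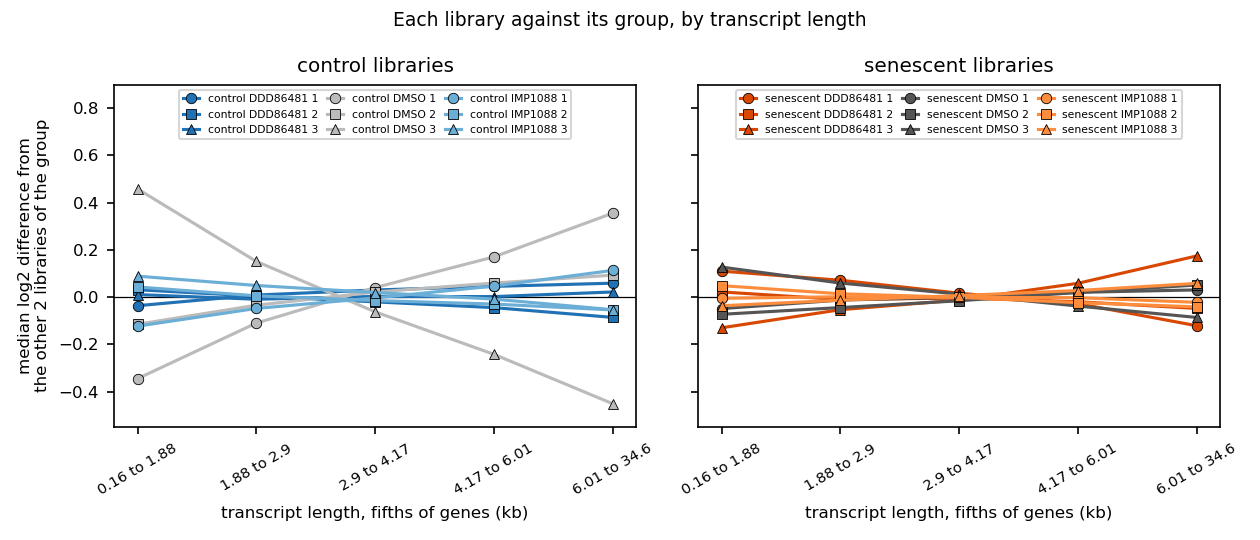
Median log2 difference of each library from the other 2 of its group (y axis) in 5 bins of genes by transcript length in kb (x axis), 1 line per library. Control DMSO replicate 3 falls from 0.46 to -0.45 while control DMSO replicate 1 rises from -0.345 to 0.355.

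To ask how NMT inhibition bears on the tethers, inhibitor libraries were set against the DMSO libraries of the same state. Golgin transcripts rose with both inhibitors in both states and none fell. In senescent cells 7 of 10 rose with IMP1088 (median log2 change 0.46) and 9 with DDD86481 (0.50). In control cells 9 rose with either inhibitor, with medians of 0.60 and 0.64. Of all genes tested, 20.6% rose and 23.9% fell with IMP1088 in senescent cells, and 20.1% rose and 23.1% fell with DDD86481. In control cells 16.3% rose and 17.4% fell with IMP1088, and 17.8% rose and 18.7% fell with DDD86481. The median change of all genes was -0.04 in senescent and 0.00 in control cells for both inhibitors. The inhibitors were set against the same DMSO libraries, so their values are not independent. Calls are from edgeR's quasi-likelihood test with Benjamini-Hochberg adjustment over all genes tested and a threshold of 0.05. In senescent cells the bin of longest transcripts had medians of -0.20 and -0.15, opposite to the golgins. In control cells that bin had medians of 0.175 and 0.245, the same direction as the golgins. Without control DMSO replicate 3, 9 golgins rose with each inhibitor in control cells (medians 0.53 and 0.55). With the length trend removed 9 also rose in each comparison, with medians of 0.44 and 0.44 in control and 0.52 and 0.49 in senescent cells.

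**Figure D3:**
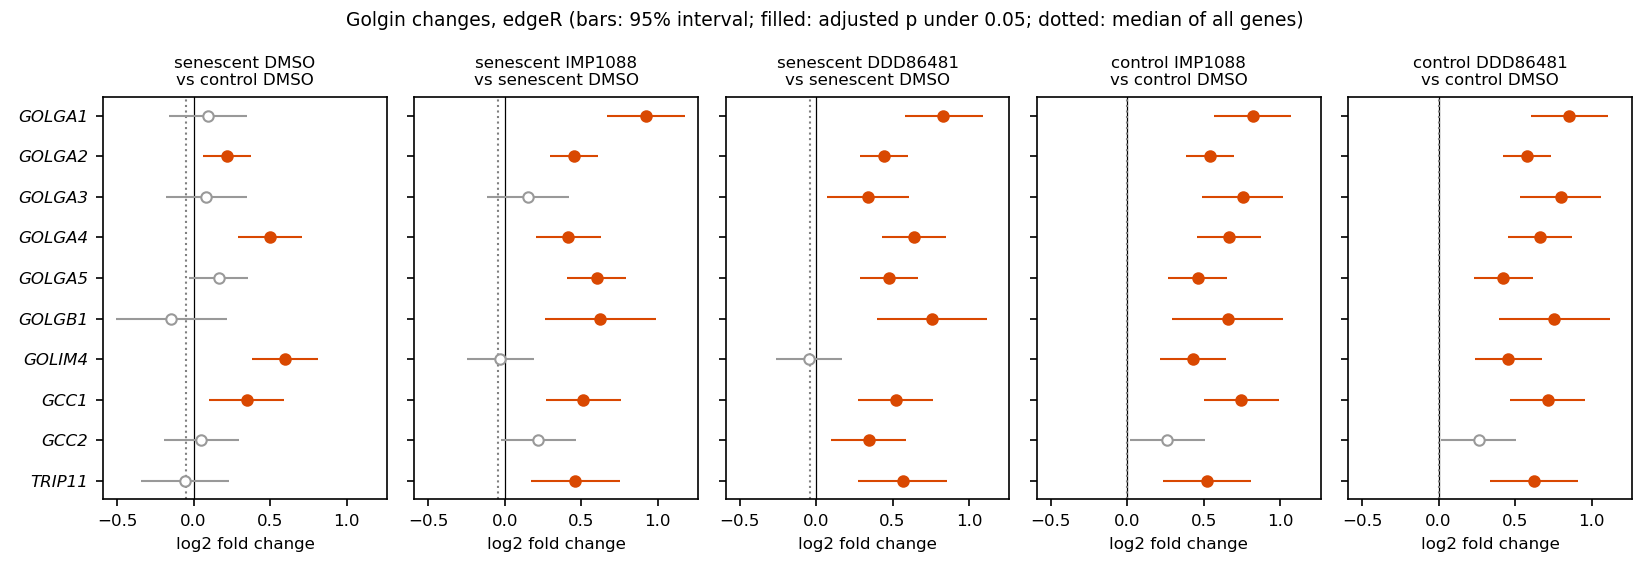
Log2 fold change of each golgin (x axis) in 5 comparisons, with 95% intervals, filled where edgeR's adjusted p is under 0.05. The dotted line is the median of all genes, and 7, 9, 9 and 9 golgins are filled for the inhibitor comparisons from left to right.

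GOLGA1, known as golgin-97, catches endosome-derived carriers at the trans-Golgi network and had the largest rise of the golgins in each inhibitor comparison. For DDD86481 in senescent cells GOLGB1 (0.90) was above GOLGA1 (0.87) with the length trend removed. Its libraries held 31.3, 30.8 and 28.0 CPM in senescent DMSO cells, 56.1, 57.3 and 57.2 with IMP1088 and 53.1, 51.8 and 55.5 with DDD86481. No inhibitor library came near the DMSO range. The log2 changes were 0.92 ± 0.12 (SE, adjusted p = 4.4e-06) and 0.83 ± 0.12 (adjusted p = 1.54e-05, both edgeR). In control cells GOLGA1 was at 33.4, 29.5 and 21.3 CPM with DMSO, 49.5, 45.96 and 53.4 with IMP1088 and 48.99, 47.95 and 55.6 with DDD86481. The lowest DMSO value is that of replicate 3. The changes of 0.82 (adjusted p = 3.18e-05) and 0.85 (adjusted p = 1.98e-05) became 0.66 and 0.69 without that library, still past the threshold. GOLGA1 (chr9:124878275-124948043, minus strand) shares 14.6% of its exonic bases with SCAI on the same strand, so some reads cannot be told apart.

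GOLGA4, or golgin-245, captures similar carriers. It was at 192, 217 and 185 CPM in senescent DMSO cells, 245, 283 and 264 with IMP1088 and 265, 334 and 326 with DDD86481. Both inhibitor groups lay above all DMSO libraries. The log2 changes were 0.42 ± 0.10 (adjusted p = 0.00215) and 0.64 ± 0.10 (adjusted p = 3.6e-05, both edgeR). In control cells it rose from 147, 134 and 138 CPM to 232, 210 and 223 with IMP1088 and 245, 201 and 218 with DDD86481. These log2 changes were 0.67 and 0.66 (adjusted p = 4.49e-05 and 4.46e-05, edgeR), and control DMSO replicate 3 lay between the other two. They were 0.445 and 0.385 with the length trend removed, still past the threshold.

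GCC1, which tethers carriers at the trans-Golgi network, was one of the scarcer golgins. In senescent cells its libraries were at 33.3, 36.9 and 40.1 CPM with DMSO, 49.99, 49.4 and 58.1 with IMP1088 and 53.6, 48.9 and 55.98 with DDD86481. The rises of 0.51 ± 0.12 and 0.52 ± 0.12 had adjusted p = 0.00137 and 0.00123 (edgeR). In control cells DMSO libraries had 31.9, 31.1 and 23.6 CPM, against 49.4, 45.5 and 50.4 with IMP1088 and 52.2, 42.5 and 47.4 with DDD86481. All inhibitor libraries were above the DMSO range in both states. The control changes of 0.74 and 0.71 (adjusted p = 6.59e-05 and 0.000105, edgeR) were 0.62 and 0.59 without control DMSO replicate 3. On the opposite strand GCC1 overlaps ARF5 over 8.16% and FSCN3 over 7.37% of its exonic bases, and the strand setting of the counting was not given.

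GCC2, a partner of several RAB GTPases, moved least of the GRIP golgins. It was at 56.7, 67.2 and 49.4 CPM in senescent DMSO cells, 64.3, 71.7 and 65.5 with IMP1088 and 64.2, 86.6 and 69.2 with DDD86481. Both inhibitor groups overlapped the DMSO range. The log2 difference was 0.22 ± 0.12 with IMP1088 (adjusted p = 0.143), and GCC2 rose by 0.34 ± 0.12 with DDD86481 (adjusted p = 0.0228, both edgeR). The DDD86481 call was lost without senescent DDD86481 replicate 2 (0.21), senescent DMSO replicate 1 (0.33) or senescent DMSO replicate 3 (0.24). The IMP1088 difference was 0.34 and passed both without senescent DMSO replicate 2 and with the length trend removed, and it also passed with only the groups compared (0.25). In control cells GCC2 had 51.6, 58.2 and 57.5 CPM with DMSO, 64.3, 66.4 and 69.8 with IMP1088 and 70.3, 60.1 and 69.9 with DDD86481. These groups did not overlap, with differences of 0.26 each that missed the threshold (adjusted p = 0.0905 and 0.0871, edgeR), and with the length trend removed the differences were 0.06 and 0.01. GCC2 is related in sequence to the RGPD genes, of which only RGPD4 held more than 100 counts (at most 1.42 CPM in a library). How many reads were misassigned or dropped between these genes cannot be told from the counts.

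GOLGA2, the cis-Golgi matrix protein also called GM130, varied little among replicates. It was at 182, 183 and 190 CPM in senescent DMSO libraries, 249, 260 and 249 with IMP1088 and 241, 258 and 256 with DDD86481. The groups were well apart. The rises were 0.45 ± 0.08 (adjusted p = 6.09e-05) and 0.45 ± 0.08 (adjusted p = 7.63e-05, both edgeR). Control DMSO libraries had 158, 151 and 167 CPM, against 223, 224 and 245 with IMP1088 and 246, 225 and 239 with DDD86481. In control DMSO replicate 3 GOLGA2 was the highest of the group, unlike most golgins. The control changes were 0.54 (adjusted p = 1.65e-05) and 0.58 (adjusted p = 8.77e-06, both edgeR). Its relatives GOLGA8A, GOLGA8B, GOLGA6L9 and GOLGA6L10 held more than 100 counts each, with at most 10.1, 5.49, 1.79 and 1.03 CPM in a library. Of the 5 relatives tested, RGPD4 included, GOLGA8A and GOLGA8B fell in senescence (log2 changes of -2.15 and -2.69), and 0 passed with an inhibitor by edgeR.

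TRIP11, also called GMAP-210, tethers vesicles at the cis-Golgi and has one of the longest golgin transcripts (9.996 kb). It was at 49.02, 54.03 and 46.9 CPM in senescent DMSO cells, 62.7, 73.9 and 69.5 with IMP1088 and 67.05, 76.4 and 78.5 with DDD86481. The rises were 0.46 ± 0.14 (adjusted p = 0.0109) and 0.57 ± 0.14 (adjusted p = 0.00252, both edgeR). Without senescent IMP1088 replicate 2 the first was 0.40 and missed the threshold by little (adjusted p = 0.0503, edgeR, with a range of 1.41e-06 to 0.0503 over its alternatives). In control cells TRIP11 had 63.5, 53.8 and 38.2 CPM with DMSO, 79.7, 67.1 and 76.5 with IMP1088 and 83.3, 69.9 and 86.3 with DDD86481. The lowest value is again control DMSO replicate 3. Without it the control changes of 0.52 and 0.62 (adjusted p = 0.00657 and 0.00168, edgeR) were 0.34 and 0.45, and with the length trend removed 0.30 and 0.32, each past the threshold.

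GOLGA5, or golgin-84, is a membrane-anchored tether of vesicles that move within the Golgi, and has the shortest golgin transcript (2.879 kb). In senescent cells it was at 107, 103 and 103 CPM with DMSO, 149, 168 and 159 with IMP1088 and 127, 159 and 150 with DDD86481. The log2 changes were 0.60 ± 0.09 (adjusted p = 2.5e-05) and 0.48 ± 0.09 (adjusted p = 0.000308, both edgeR). Control libraries had 87.9, 94.8 and 96.7 CPM with DMSO, 123, 124 and 137 with IMP1088 and 133, 113 and 128 with DDD86481. In both states the inhibitor libraries were all above the DMSO range. The control changes of 0.46 and 0.42 (adjusted p = 0.000708 and 0.00147, edgeR) were 0.49 and 0.45 without control DMSO replicate 3.

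GOLGB1, or giantin, is the largest golgin. It rose from 108, 117 and 105 CPM in senescent DMSO cells to 154, 179 and 175 with IMP1088 and 152, 186 and 221 with DDD86481. Its changes of 0.62 ± 0.17 (adjusted p = 0.00609) and 0.76 ± 0.17 (adjusted p = 0.00141, both edgeR) had the largest errors of the golgins. Control DMSO libraries were at 155, 132 and 77.2 CPM, the widest spread of any golgin in a group (40.0 SD around 121). IMP1088 libraries were at 206, 178 and 190 CPM and DDD86481 libraries at 220, 181 and 215. The control changes of 0.66 and 0.76 (adjusted p = 0.00632 and 0.00211, edgeR) were 0.41 and 0.52 without control DMSO replicate 3, past the threshold. With only the groups compared the IMP1088 calls of GOLGB1 and TRIP11 in control cells were lost (adjusted p = 0.0727 and 0.073, edgeR, the highest over the alternatives).

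GOLGA3, or golgin-160, had its larger changes in control cells. There it was at 164, 131 and 116 CPM with DMSO, 240, 214 and 239 with IMP1088 and 268, 198 and 248 with DDD86481. The rises were 0.76 ± 0.13 (adjusted p = 0.00014) and 0.80 ± 0.13 (adjusted p = 8.01e-05, both edgeR), or 0.65 and 0.69 without control DMSO replicate 3. In senescent cells its libraries had 146, 140 and 149 CPM with DMSO, 165, 147 and 172 with IMP1088 and 172, 165 and 214 with DDD86481. The IMP1088 and DMSO ranges overlapped, with a difference of 0.15 ± 0.13 (adjusted p = 0.355, edgeR). With DDD86481 it rose by 0.34 ± 0.13 (adjusted p = 0.0373, edgeR). That call was lost without senescent DDD86481 replicate 3 (0.22) or without senescent DMSO replicate 1 (0.35), replicate 2 (0.32) or replicate 3 (0.36). With the length trend removed the IMP1088 difference was 0.33 and passed (adjusted p = 0.00438, range over the alternatives 0.00039 to 0.607).

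GOLIM4, or GPP130, was the golgin that passed with neither inhibitor in senescent cells. Its libraries there held 181, 182 and 162 CPM with DMSO, 168, 176 and 171 with IMP1088 and 156, 182 and 171 with DDD86481. All 3 groups overlapped. The differences were -0.03 ± 0.10 (95% interval -0.24 to 0.19, adjusted p = 0.848) and -0.05 ± 0.10 (-0.26 to 0.17, adjusted p = 0.748, both edgeR). In control cells GOLIM4 had 131, 122 and 93.6 CPM with DMSO, 157, 155 and 156 with IMP1088 and 173, 148 and 156 with DDD86481. The rises of 0.43 and 0.46 (adjusted p = 0.00354 and 0.00202, edgeR) were 0.30 and 0.33 without control DMSO replicate 3. Both calls were lost with only the groups compared (0.43 and 0.45, adjusted p = 0.0543 and 0.0509, edgeR, with lowest values of 0.000583 and 0.000268 over the alternatives).

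Whether senescence changed the response was tested by interaction terms, which subtract the control-cell change from the senescent-cell change. With IMP1088 the interaction was negative for 2 golgins, at -0.60 ± 0.18 for GOLGA3 (adjusted p = 0.0189) and -0.46 ± 0.15 for GOLIM4 (adjusted p = 0.0273, both edgeR). With DDD86481 it was negative for GOLIM4 at -0.50 ± 0.15 (adjusted p = 0.0147, edgeR). No golgin had a positive interaction past the threshold. Among all genes, 12.1% had a positive and 14.2% a negative interaction with IMP1088, and 14.4% and 15.9% with DDD86481, so the golgin counts are near the background. GOLGA3 missed the threshold with DDD86481 (-0.46 ± 0.18, adjusted p = 0.061, edgeR). The other 8 golgins had interactions between -0.25 and 0.14 with either inhibitor. For GOLGA1, whose rise was the largest in each state, the interaction was 0.10 (95% interval -0.25 to 0.46) with IMP1088 and -0.02 (-0.38 to 0.33) with DDD86481. The IMP1088 value was 0.25 with the length trend removed, 0.265 without control DMSO replicate 3 and 0.36 with both, where it passed. The bin of longest transcripts had median interactions of -0.37 and -0.41, and the shortest bin 0.33 and 0.38. With the length trend removed GOLGA3 was at -0.21 with IMP1088 and no longer called. Its IMP1088 call was also lost without control DMSO replicate 2 (-0.54), control IMP1088 replicate 1 (-0.54) or senescent IMP1088 replicate 2 (-0.54). With DDD86481 GOLGA3 passed without control DDD86481 replicate 2 (-0.53), control DMSO replicate 1 (-0.61) or senescent DDD86481 replicate 3 (-0.58). It was at -0.35 without control DMSO replicate 3, -0.04 with the length trend removed and -0.08 with both, and passed in none of these. GOLIM4, which is not in the longest bin, was called with DDD86481 in 18 of 20 alternatives (-0.60 to -0.29) and with IMP1088 in 11 of 20 (-0.56 to -0.27). The DDD86481 call was lost without control DDD86481 replicate 1 (-0.40). The IMP1088 call was lost without any 1 of the 3 control IMP1088 libraries (-0.42, -0.42 and -0.43), senescent DMSO replicate 1 (-0.43) or 2 (-0.43), or senescent IMP1088 replicate 1 (-0.44) or 3 (-0.46). With the length trend removed GOLGB1 and TRIP11 had positive interactions past the threshold, at 0.41 and 0.36 with IMP1088 and 0.45 and 0.385 with DDD86481. GOLGA4 had one of 0.37 with DDD86481. Without the correction these values lay between -0.06 and 0.00, so whether an interaction is called for these long transcripts depends on it.

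**Figure D4:**
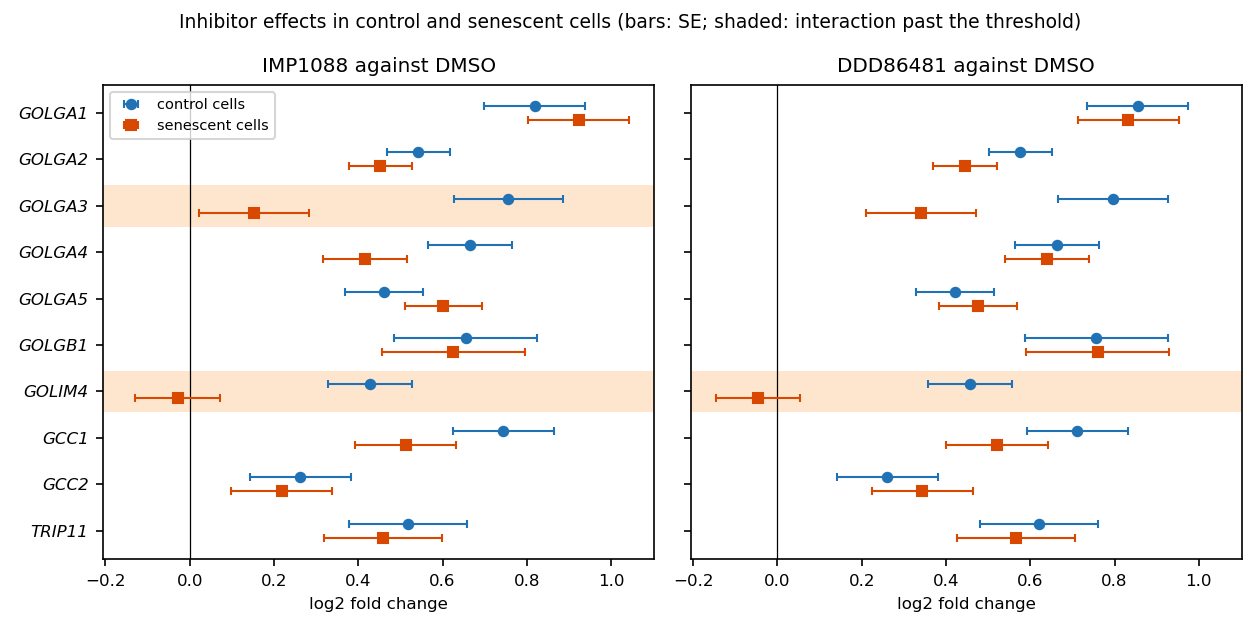
Log2 fold change ± SE of each golgin with IMP1088 (left) and DDD86481 (right) against DMSO, with circles for control and squares for senescent cells. Shaded genes had an interaction past the threshold, and GOLIM4 lies at -0.03 and -0.05 in senescent but 0.43 and 0.46 in control cells.

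Senescence itself was followed by comparing senescent with control DMSO cells. GOLIM4, GOLGA4, GCC1 and GOLGA2 rose and no golgin fell, with a median log2 change of 0.13 over the 10. Of all genes 32.5% rose and 36% fell, so 4 risers of 10 is near the background, while the median of all genes was -0.05. GOLIM4 rose from 131, 122 and 93.6 to 181, 182 and 162 CPM (0.60 ± 0.10, adjusted p = 3.9e-05) and GOLGA4 from 147, 134 and 138 to 192, 217 and 185 CPM (0.50 ± 0.10, adjusted p = 0.000193, both edgeR). In both the senescent libraries were all above the control ones, and both calls held in all 14 alternatives. GCC1 rose by 0.35 ± 0.12 (adjusted p = 0.0135) and GOLGA2 by 0.22 ± 0.08 (adjusted p = 0.0136, both edgeR). GCC1 lost its call without control DMSO replicate 3 (0.22) or senescent DMSO replicate 3 (0.28), and GOLGA2 without control DMSO replicate 2 (0.16). Both also lost it with upper quartile scaling (0.19 for GCC1, 0.06 for GOLGA2) and with only the groups compared (0.37 and 0.24). GCC1 lost it too with the length trend removed and control DMSO replicate 3 left out together (0.22). The calls held in 9 of 14 alternatives for GCC1 and 11 of 14 for GOLGA2. GOLGA5 had 87.9, 94.8 and 96.7 against 107, 103 and 103 CPM, which did not overlap, with a difference of 0.17 ± 0.09 (adjusted p = 0.117, edgeR). GOLGA1, GOLGA3, GCC2 and TRIP11 differed by between -0.06 and 0.09. GOLGB1 was at 155, 132 and 77.2 against 108, 117 and 105 CPM, a difference of -0.15 ± 0.17 (adjusted p = 0.467). Without control DMSO replicate 3 GOLGB1 fell by 0.39 on the log2 scale (adjusted p = 0.00812, edgeR, range over the alternatives 0.00812 to 0.719), so this value rests on that library. With the length trend removed GOLGB1 was at -0.12 (adjusted p = 0.247), and without that library as well at -0.24 (adjusted p = 0.0146, both edgeR). Bulk RNA shows the mean of the cells collected, and fewer cells of a kind cannot be told apart from less RNA per cell.

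**Figure D5:**
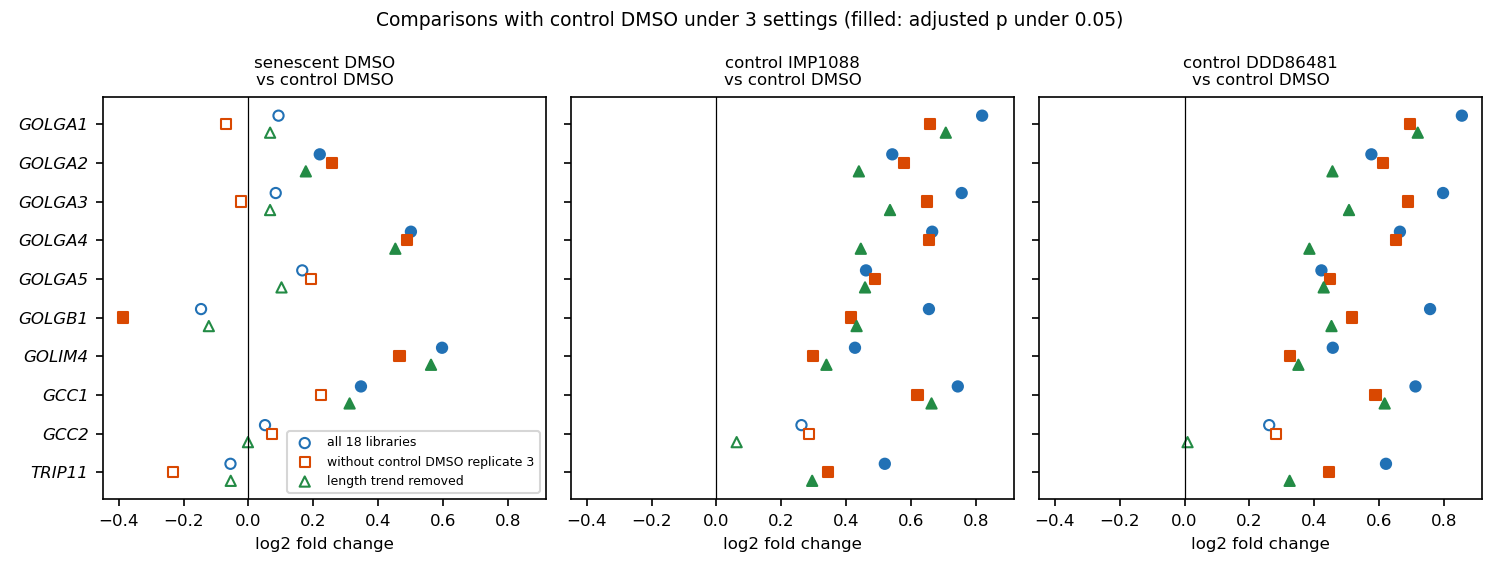
Log2 fold change of each golgin (x axis) in the 3 comparisons with control DMSO, from all 18 libraries (circles), without control DMSO replicate 3 (squares) and with the length trend of each library removed (triangles), filled where the adjusted p of edgeR is under 0.05. In both inhibitor comparisons the same 9 golgins are filled under the 3 settings, all but GCC2.

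The inhibitors were also compared with each other, in 2 tests for each golgin. With adjustment over all 14341 genes, 0 golgins and 0% of all genes differed between IMP1088 and DDD86481 in senescent cells by edgeR, and likewise 0% in control cells. DESeq2 also called 0 genes in both states. At an unadjusted p under 0.05 there were 1 golgin among 570 genes in senescent cells and 0 among 141 in control cells by edgeR. That golgin was GOLGA4, at 245, 283 and 264 CPM with IMP1088 and 265, 334 and 326 with DDD86481, a difference of -0.22 ± 0.10 (95% interval -0.43 to -0.01, adjusted p = 1, edgeR). The 95% intervals of the 10 golgins ran from -0.49 to 0.34 in senescent and from -0.46 to 0.27 in control cells, which leaves room for differences of that size. GOLGA1 was the only golgin with non-overlapping groups, at 56.1 to 57.3 CPM with IMP1088 and 51.8 to 55.5 with DDD86481 in senescent cells. The doses differed and no dose series was made.

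Proteins that recruit golgins to membranes, including ARL1, the NatC acetylase that prepares its upstream GTPase, and RAB proteins, changed in either direction. Of 16 tested, 7 rose and 2 fell in senescent cells with each inhibitor. ARL1, the GTPase that binds GOLGA1 and GOLGA4, rose by 0.92 ± 0.10 with IMP1088 and 0.86 ± 0.10 with DDD86481 (adjusted p = 2.05e-07 and 5.21e-07, edgeR). The Golgi GTPase RAB33B rose by 1.05 and 0.99, while RAB30 fell by 0.83 and 0.86 and RAB1B by 0.32 and 0.26 on the log2 scale. In control cells 6 rose and 3 fell with IMP1088, and 7 rose and 2 fell with DDD86481. ARFGEF2, an exchange factor for ARF GTPases, rose there by 0.80 and 0.95, and RAB33B by 0.59 and 0.66. The NatC subunit NAA38 fell by 0.48 and 0.545 on the log2 scale, and without control DMSO replicate 3 the members that fell numbered 1 and 0 by edgeR. ARL1 had a positive interaction with both inhibitors (0.61 and 0.59, adjusted p = 0.00249 and 0.00316, edgeR). So did NAA38 (0.76 and 0.945, adjusted p = 0.0268 and 0.00725), while that of RAB30 with DDD86481 was negative (-0.56, adjusted p = 0.044, all edgeR). Of the 16, 3 had a positive interaction with each inhibitor, beside 12.1% and 14.4% of all genes. Without control DMSO replicate 3 these were 1 with IMP1088 and 4 with DDD86481. In senescence 8 of 16 rose and 2 fell, with RAB6B at 2.46 and RAB1B at 0.80, and ARL1 (-0.23) and SYS1 (-0.50), which anchors ARL1's upstream GTPase, lower. These lists were drawn up with earlier results known and are set beside the golgins as description. Their counts are to be read against the same shares of all genes as the golgins, which in senescence were 32.5% higher and 36% lower.

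Other coiled-coil tethers and stacking proteins gave 7 higher and 1 lower of 12 with IMP1088 and 6 and 0 with DDD86481 in senescent cells. In control cells 6 and 7 rose and 0 fell by edgeR, and at most 1 fell with the length trend removed. BLZF1, also called golgin-45, rose in each: by 1.46 ± 0.13 and 1.48 ± 0.13 in senescent and 1.16 ± 0.13 and 1.09 ± 0.13 in control cells (adjusted p from 1.87e-08 to 2.23e-06, edgeR). TMF1, a RAB6-binding golgin, rose by 0.71 with IMP1088 in senescent cells and by 0.67 with each inhibitor in control cells. ACBD3, a giantin-binding protein, rose by 0.57 with IMP1088 and 0.65 with DDD86481 in senescent cells. BICD2, a dynein adaptor, fell by 0.45 with IMP1088 in senescent cells. In senescence 7 rose and 2 fell, with BICD2 at 1.45 and the vesicle tether USO1 at 0.74, while CUX1 (-0.96), whose locus also encodes a golgin, and GOPC (-0.28) were lower.

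The COG and GARP complexes are multisubunit tethers that work with golgins on vesicles inside the Golgi and from endosomes. Of 12 subunits 7 rose and 1 fell with either inhibitor in senescent cells, and 8 rose and 0 fell in control cells by edgeR. COG6 rose by 1.45 and 1.41 in senescent and 1.02 and 0.99 in control cells. COG5 rose by 1.17 and 0.96 in senescent cells, COG3 by 0.85 and 0.89 in control cells, and COG4 fell by 0.30 and 0.34 in senescent cells. COG5 and COG6 had positive interactions with both inhibitors (0.83 and 0.43 with IMP1088, 0.58 and 0.43 with DDD86481). These were 2 of the 12 with each inhibitor, beside 12.1% and 14.4% of all genes. COG6 passed by little (adjusted p = 0.0406 and 0.0391, edgeR). In senescence 3 of 12 rose and 1 fell, no larger shares than among all genes (32.5% and 36%), with COG6 at 0.73, VPS53 at 0.62 and COG2 at -0.43, and 4 fell without control DMSO replicate 3.

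Golgi SNAREs, the proteins that fuse vesicles once they are tethered, and the adaptors of golgin-captured vesicles gave 10 higher and 3 lower of 16 with IMP1088 and 9 and 3 with DDD86481 in senescent cells. TBC1D23, the adaptor that binds GOLGA1 and GOLGA4, rose by 0.95 with each. The SNARE GOSR2 rose by 1.02 and 0.93. STX6, a trans-Golgi SNARE, fell by 0.85 and 0.77 and VAMP3 by 0.31 and 0.30 on the log2 scale. In control cells 8 rose and 2 fell with each inhibitor, with GOSR2 at 0.68 and 0.69, GOSR1 at 0.65 and 0.68, STX6 at -0.37 and -0.32 and VAMP3 at -0.25 and -0.28. TBC1D23 had positive interactions of 0.52 and 0.56, and STX6 (-0.48 and -0.45) and FAM91A1 (-0.40 and -0.40) negative ones. Of the 16, 2 had a positive and 2 a negative interaction with IMP1088, and 4 and 2 with DDD86481. Among all genes the positive and negative shares were 12.1% and 14.2% with IMP1088 and 14.4% and 15.9% with DDD86481. In senescence 5 of 16 rose, near the share of all genes (32.5%), and 0 fell by edgeR. The risers were led by the adaptor FAM91A1 (0.93) and BET1L (0.59), while 1 fell without control DMSO replicate 3.

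Genes of the TFE3 branch of the Golgi stress response gave 6 higher of 10 with each inhibitor in each state. That list also holds GOLGA2 and GOLGB1, and shares ACBD3 with the other tethers, so the counts overlap. With IMP1088 and DDD86481, 2 and 3 fell in senescent and 1 and 1 in control cells. The sialyltransferase ST3GAL6 rose by 1.38 and 1.21 in senescent cells, while ST3GAL1 fell by 0.86 and 0.79 on the log2 scale. The factor TFE3 itself fell by 0.35 and 0.33 in senescent and 0.35 and 0.27 in control cells. UAP1L1, a nucleotide-sugar enzyme, rose by 1.28 and 1.18 in control cells and had negative interactions of -0.92 and -0.68. Of the 10, 1 had a positive and 2 a negative interaction with each inhibitor, to be read against the same shares of all genes. In senescence 7 rose and 1 fell, with MLX at 1.16, STX3 at 1.46 and RAB20 at -1.

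Across the 18 libraries golgin levels were correlated, as a description of libraries that share treatments. Pairs of other genes were not set beside them, so a likeness particular to golgins was not tested. Over 45 pairs the median Pearson correlation of log2 CPM was 0.72, from 0.36 for GOLGA3 and GOLIM4 to 0.99 for GOLGB1 and TRIP11, the golgins with the longest transcripts. Without control DMSO replicate 3 the median was 0.69, GOLGA3 with GOLIM4 was at 0.03, and GOLGB1 with GOLIM4 went from 0.48 to 0.03. Among all genes outside the 10, the one most like GOLGA1 was RNMT (r = 0.98), and for GOLGA2 it was ATG13 (0.97). GOLGA3 was most like RAVER1 (0.96), GOLGA4 like PRRC1 (0.96), GOLGA5 like FAM8A1 (0.97), GOLIM4 like ETV3 (0.97) and GCC1 like OSBP (0.97). GOLGB1 and TRIP11 shared UBE4A as the most alike gene (both 0.97), and GCC2 had the weakest likeness, to SLC7A11 (0.88).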

How the data were processed

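The authors prepared poly(A) RNA as directional libraries, sequenced single-end reads, and deposited raw counts per gene symbol for 18 libraries. The submitters' notes name hg38, DRAGEN, STAR 2.7.8a and DESeq2 1.32.0, whereas the study's methods name hg19, TopHat and Ensembl. Which made the table, and the strand setting of counting, are not given in the sources used here, and reads of overlapping or related genes may be misassigned. Groups came from the labels. The golgins and all gene lists and motifs were chosen with earlier results of these data known.

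Genes were filtered with filterByExpr, scaled by TMM and tested with edgeR 4.0.16 (R 4.3.3) in 1 quasi-likelihood fit over the 6 groups. P-values were adjusted over 14341 genes, with 0.05 as the threshold, and the test was checked on simulated data. Replicates differed by more than sampling noise (chi-square of at least 5.26 per gene). Intervals cover the spread between libraries, and floors of 3 counts cover counting error only.

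All golgins were named in each comparison, and from each other list at most 2 genes per direction with the smallest adjusted p. The most alike gene was that with the highest correlation of log2 CPM (prior count 2). Gene positions and promoters are from RefSeq GRCh38.p14, since the table holds no coordinates, and transcript lengths from GENCODE canonical transcripts on GRCh37, for 95.9% of genes tested. Alternatives were DESeq2 1.42.0, upper quartile scaling, no filter, only the groups compared, the replicate number as a block and leaving out each library. Length offsets, alone and with other choices, were added after seeing the data.

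Deviations from the group means of same-numbered libraries correlated above 0.1 in every pair for 4 of 15 group pairs. For control DMSO against IMP1088 in control cells they were 0.674, 0.161 and 0.423, and for the DMSO groups of both states 0.18, 0.167 and 0.264. They did so too for the inhibitor groups within control cells (0.243, 0.583 and 0.29) and within senescent cells (0.255, 0.284 and 0.373). Other group pairs went the opposite way. For control DMSO the correlations were -0.372, -0.159 and -0.588 with senescent DDD86481, and -0.0902, -0.0809 and -0.262 with senescent IMP1088. Any pairing rests on these correlations alone, since the labels name no shared batch.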

Additional observations from a re-analysis of the deposited data

Results flagged for a closer look

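For 3 golgin responses the effect of an inhibitor differed between senescent and control cells by the interaction term of edgeR's quasi-likelihood test. GOLGA3 had an interaction of -0.603 with IMP1088 (adjusted p = 0.0189), from a rise of 0.76 in control cells and a difference of 0.15 in senescent cells. GOLIM4 had interactions of -0.456 with IMP1088 (adjusted p = 0.0273) and -0.504 with DDD86481 (adjusted p = 0.0147), from rises of 0.43 and 0.46 in control cells and differences of -0.03 and -0.05 in senescent cells. GOLIM4 was already higher in senescent than in control DMSO cells, by 0.60. That difference and the interactions use the same DMSO libraries, so they are not independent. Without control DMSO replicate 3 the difference was 0.47 and the interactions -0.325 with IMP1088 and -0.37 with DDD86481. Among all genes 14.2% with IMP1088 and 15.9% with DDD86481 had a negative interaction, so 2 and 1 of 10 golgins are near the background. With the length trend removed GOLGA3 was at -0.207 with IMP1088 and lost its call. Adjusted p over the 20 alternatives ran from 0.00159 to 0.237 for GOLGA3, from 0.00459 to 0.0791 for GOLIM4 with IMP1088 and from 0.00226 to 0.0706 for GOLIM4 with DDD86481.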

How the results depend on the processing

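Of 1340 golgin values recomputed, 1273 stayed as they were, either called or not called. A call was lost in 37 and gained in 19, and 11 changed sign with a call in either setting. Another 102 changed sign with a call in neither, all from values of at most 0.25. The changes of sign with a call came only with the length trend removed, in the interactions. There GOLGB1 and TRIP11 were at 0.41 and 0.362 with IMP1088, and GOLGA4 and TRIP11 at 0.372 and 0.385 with DDD86481. With the replicate block as well these were 0.408, 0.362, 0.367 and 0.384. Without control DMSO replicate 3 as well, GOLGB1 and TRIP11 were at 0.52 and 0.401 with IMP1088, and TRIP11 at 0.424 with DDD86481. Golgins called for senescence fell from 4 to 2 with upper quartile scaling, which moved the median of all genes by -0.15, and to 2 with only the groups compared. With only the groups compared, all genes called in control cells were 2716 with IMP1088 and 2842 with DDD86481, and golgins with an interaction were 1 and 0. In senescent cells with IMP1088 the same setting gave more calls, 7841 genes and 9 golgins. In control cells it gave 6 golgins with IMP1088, losing GOLGB1, GOLIM4 and TRIP11, and 8 with DDD86481, losing GOLIM4. The DDD86481 interaction count of 1 golgin became 2 without a filter, 4 with the length trend removed, 4 with that and the block and 3 with that and 17 libraries. Leaving out single libraries gave 0 to 2 golgins with an interaction for IMP1088 and 0 to 2 for DDD86481. Without a filter 1 gene differed between the inhibitors in senescent cells. The causes were not tested.

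The replicate block gave 2 golgins with a DDD86481 interaction, adding GOLGA3 (-0.453, adjusted p = 0.0374, edgeR), and changed no other golgin call. The lowest golgin value in a library was 21.3 CPM, above the floor of 3 counts (at most 0.186 CPM), and 3 libraries a group limit the precision.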
